A study of Oryza sativa with 6 samples.

Results

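A set of 89 rice loci had a higher transcript level in ferulic acid (FA)-treated than in water-treated roots after long exposure and a lower one after short exposure. FA is a phenolic acid that rice itself releases, and it acts on rice roots as an autotoxin. The data were 6 2-channel Agilent arrays of root RNA from 6-day-old seedlings of cv. TN-67, with 3 biological replicate arrays for long exposure (24 h) and 3 for short exposure, for which RNA from 1 h and from 3 h had been pooled. On every array RNA of roots given 50 ppm FA (red dye) was set against RNA of roots given water in parallel (green dye), and no array had the dyes exchanged, so that a dye effect and an FA effect cannot be told apart within an exposure. The short arrays cannot separate what happened at 1 h from what happened at 3 h. The sample labels name seedling roots, while the paper's array methods name root tips as the source of the RNA.

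The members were chosen by their values. A probe had to carry a locus name of the Rice Annotation Project and a signal that reached 100 in FA or water roots on each of the 6 arrays, in the scanner's processed units. Its log2 ratio of FA over water then had to average at least 0.4 over the long arrays and at most -0.5 over the short arrays, with the same sign on the 3 arrays of each exposure. In all, 107 probes at 89 loci met these limits, of 22915 probes at 16239 loci with a measured probe (0.548% of the loci). With the signs of both limits turned round, 93 loci lay on the other side, lower after long and higher after short exposure. The ratios below are therefore descriptions of how the members were picked, and no test of them is given.

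Of the 89 members, 25 had an annotation in the sources used here, and 15 were on a gene-family list used below. The remaining members are known by locus name only, so the named genes do not describe the set as a whole. Several of the annotated members belong to pathways of root growth and uptake. Gibberellins promote cell elongation, and their active forms are made in the last steps by GA 20-oxidases and GA 3-oxidases and removed by GA 2-oxidases. In plants, active gibberellin is known to lower transcripts of the 20- and 3-oxidases and to raise those of 2-oxidases. Rice roots take up silicic acid through the channel Lsi1 and pass it on towards the stele through the exporter Lsi2. Growing root cells loosen their walls with expansins, xyloglucan-modifying enzymes and endoglucanases.

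Each array had 68.1% to 75.1% of its probes well above background in the water channel and 72.2% to 76.7% in the FA channel. The array medians over the measured probes lay between -0.10 and -0.02 on the log2 scale. Arrays give no counting depth, and 3 arrays per exposure limit the precision. By the file headers the 3 long arrays shared 1 slide, short replicates 1 and 2 shared another, and short replicate 3 lay on one of its own, so slide and exposure cannot be told apart. The root marker RCc3 was among the bright probes, with a log2 mean signal of 16.60, and 1 of 5 leaf markers reached the signal limit of the test in each exposure. The root marker list, which holds the member Lsi1 and its partner Lsi2, moved with the exposures: 3 of 3 tested markers were higher after long exposure (median 0.46), and after short exposure 2 were lower and 1, RCc3, was higher (median -0.70). By the same fits 27.3% of all tested loci were higher after long exposure. After short exposure 39.7% were lower and 28.3% higher. RCc3 stood at 0.68 after long and 0.58 after short exposure, and the part of the markers in the results was not tested. Fewer cells of a type and less RNA per cell cannot be told apart in RNA of a mixed tissue.

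Over the 89 members, the mean log2 ratio ran from 0.40 to 2.12 after long exposure (median 0.49) and from -1.61 to -0.50 after short exposure (median -0.78). Over all measured loci the medians were -0.03 after long and -0.09 after short exposure. The difference long minus short ran from 0.92 to 3.04 over the members (median 1.33), and 5 members differed by at least 2. Most members were close to the limit after long exposure, where 49 lay between 0.4 and 0.5, and 5 reached a 2-fold increase. After short exposure 23 lay between -0.6 and -0.5, and 10 were at least 2-fold lower. No member reached 2-fold in both exposures by its representative probe, the brightest that met the limits. Across all measured loci the ratios of both exposures went together (r = 0.48 across 16239 loci, which are not independent replicates), while over the members, whose ranges the limits cut, r was 0.06.

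**Figure D1:**
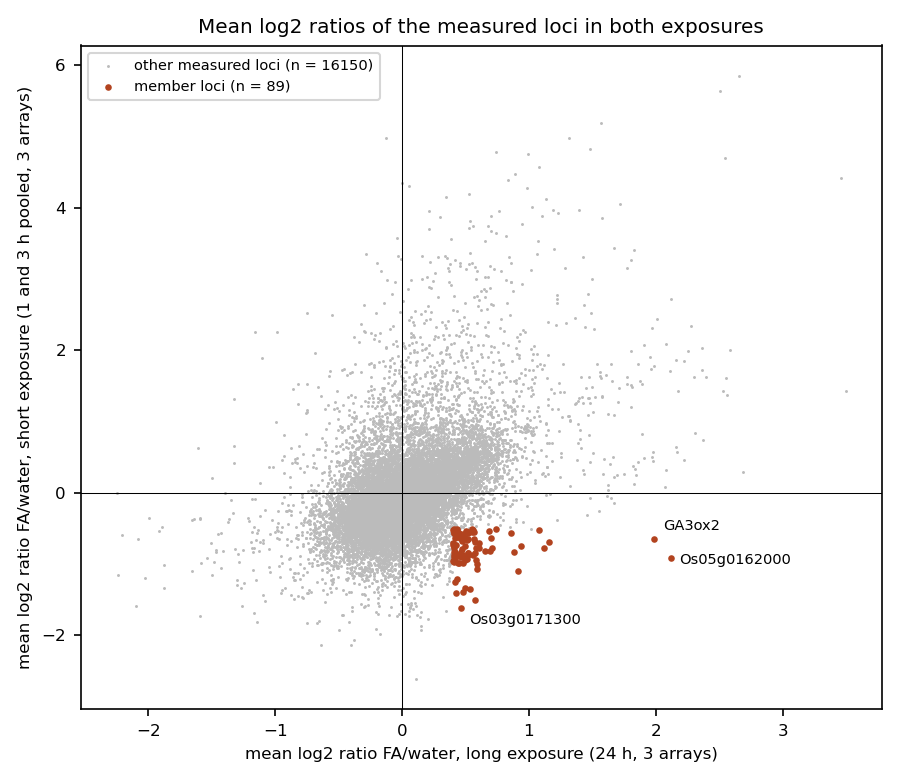
Mean log2 ratio of FA over water after long exposure (x axis) against that after short exposure (y axis) for each measured locus, 3 arrays per exposure. The 89 member loci lie below and to the right of the origin, 49 of them between 0.4 and 0.5 on the x axis, with GA3ox2 and Os05g0162000 near 2 on the x axis and Os03g0171300 lowest on the y axis.

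The limits asked for 1 sign on all 3 arrays of an exposure, so closeness of the replicates was partly fixed by the choice. The standard deviation over 3 arrays had a median of 0.15 after long and 0.19 after short exposure. The median ratio of the members was 0.49, 0.52 and 0.51 on the 3 long arrays and -0.68, -0.87 and -0.75 on the 3 short arrays. Short replicate 2 gave the lowest value for 58 of the 89 members. In the fits across all probes with limma (adjusted p under 0.1), 89 of the 89 members were called higher after long exposure, where 25.1% of 27074 probes tested were, and 89 were called lower after short exposure, where 39.3% of 27779 were. By the methods' t-test with Benjamini-Hochberg adjustment, 37 members were called higher after long and 66 lower after short exposure. At 2-fold or more the counts were 5 members, against 1.65% of probes, after long and 10 members, against 2.27%, after short exposure. In the limma fit of long minus short, 89 members were called higher, where 26.1% of 28363 probes were, and 79 of them at 2-fold or more, where 2.5% were. The limits used these same contrasts, so nothing is read from these counts.

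Gibberellin synthesis supplied 3 members. GA3ox2 (Os01g0177400), the 3-oxidase that makes active gibberellin in growing organs, had log2 ratios of 2.46, 1.97 and 1.55 after long exposure and -0.65, -0.89 and -0.39 after short exposure. All 3 long arrays lay above all 3 short ones, as the limits require. The means were 1.99 ± 0.46 (3.97-fold higher) after long and -0.64 ± 0.25 (1.56-fold lower) after short exposure (SD, n = 3 each). The locus has 3 probes for 3 mRNA sequences, and all met the limits, with means of 1.90 to 1.99 after long and -0.67 to -0.64 after short exposure.

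GA20ox1 (Os03g0856700), a 20-oxidase of the step before, had ratios of 0.40, 0.57 and 0.59 after long exposure and -0.49, -0.94 and -1.11 after short exposure. Its 3 probes met the limits too, the dimmest with the lowest short mean, -1.15 ± 0.16 (SD, n = 3). The probes of GA20ox2 (Os01g0883800), the semidwarf gene SD1, disagreed with each other. Its brighter coding-sequence probe had ratios of 0.80, 0.55 and 0.48 after long and -0.52, -0.68 and -0.92 after short exposure, and the second coding-sequence probe had means of 0.71 and -0.78. A pair of brighter probes in the 3' untranslated region had long means of 0.51 and 0.47 but short means of 0.70 and 0.75, above 0 on every array. Only the direction after long exposure was shared by all 4 measured probes of GA20ox2, and its direction after short exposure depends on the probe. With normexp and loess on the raw signals, each of the 3 members missed a limit: the short means were -0.42 for GA3ox2 and -0.44 for GA20ox2, and the long mean of GA20ox1 was 0.39.

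Of the 11 loci on a list of gibberellin synthesis genes, 5 were tested by their brightest probe. After long exposure 3 were higher and 0 lower, and after short exposure 1 was higher (the untranslated-region probe of GA20ox2) and 2 were lower. The 3 that were higher after long exposure are the members. The medians were 0.51 after long and -0.29 after short exposure, beside -0.03 and -0.09 over all tested loci, of which 27.3% were called higher and 30.4% lower after long exposure, and 28.3% higher and 39.7% lower after short exposure. The early-pathway genes KS (0.03 and 0.04) and KO2 (0.01 and -0.29, long and short) did not pass the test in either exposure. None of the 15 deactivation genes was a member. After short exposure 4 of 6 tested ones rose and 0 fell: GA2ox3 by 3.03 ± 0.10 and GA2ox9 by 3.00 ± 0.10 (SE, adjusted p = 1.7e-05 each, limma), EUI by 1.00 and GA2ox7 by 0.45. After long exposure GA2ox3 stood at 0.20 and did not pass the test (adjusted p = 0.279), and GA2ox9 was below the signal limit. Of the 5 deactivation genes tested after long exposure, 3 were higher, GA2ox7 (0.72), EUI (0.50) and GA2ox10 (0.39), and 1 was lower, EUIL2 (-0.54). The median over the tested deactivation genes was 0.39 after long and 0.73 after short exposure. Among 7 tested signalling genes, 2 were higher and 2 lower after long exposure, and 2 were higher and 1 lower after short exposure (medians -0.05 and -0.06). The receptor GID1 was higher in both exposures (0.73 and 0.96), and the DELLA repressor SLR1 was lower after short exposure (-0.36, adjusted p = 0.00797) and did not pass the test after long exposure (-0.15, adjusted p = 0.105).

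**Figure D2:**
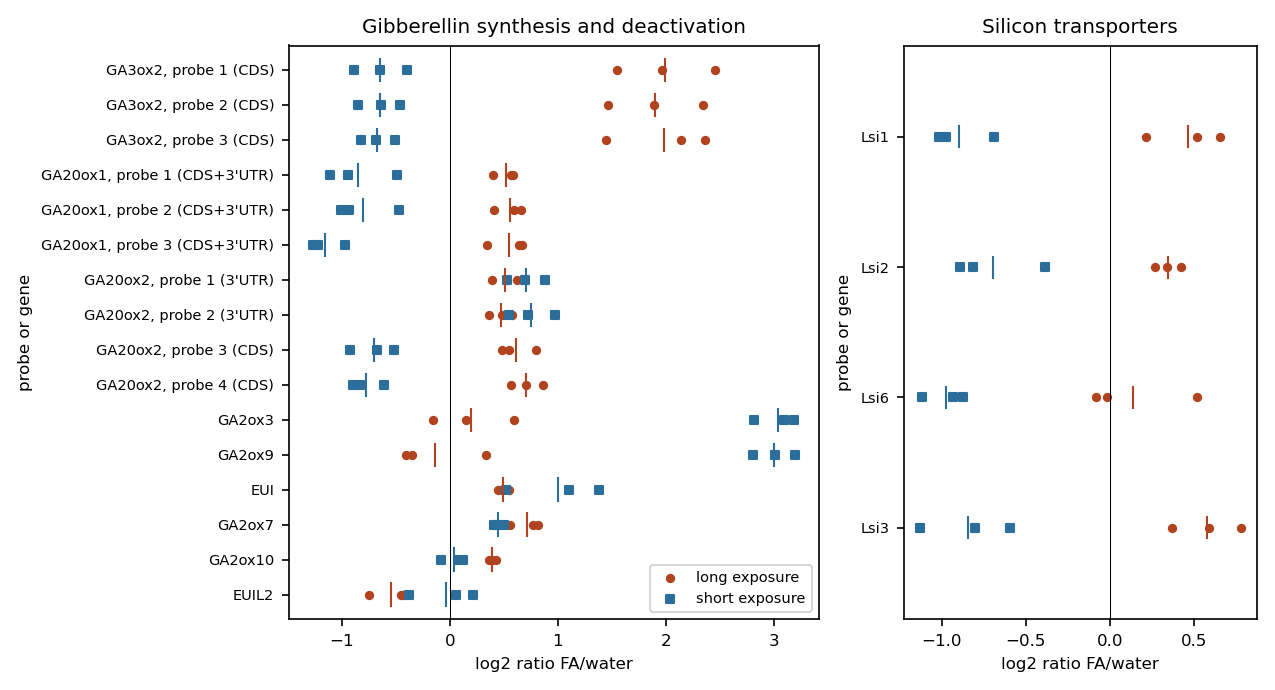
Log2 ratios of FA over water (x axis) on each of 3 long and 3 short arrays, with ticks at the means, for the measured probes of the 3 gibberellin synthesis members and the tested deactivation genes (left) and for the 4 silicon transporters (right). GA3ox2 and GA20ox1 are right of 0 after long and left of 0 after short exposure with every probe, the 3' untranslated-region probes of GA20ox2 are right of 0 in both, and GA2ox3 and GA2ox9 stand near 3 after short exposure. GA2ox9 was below the signal limit of the test after long exposure.

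Silicon transport was represented by Lsi1 and Lsi3. Lsi1 (Os02g0745100), the channel through which silicic acid enters root cells, was the brightest member and had ratios of 0.21, 0.52 and 0.66 after long exposure and -0.97, -0.69 and -1.02 after short exposure. Its means were 0.46 ± 0.23 and -0.89 ± 0.18 (SD, n = 3 each). Lsi3 (Os10g0547500), of the same family as the exporter Lsi2, had ratios of 0.59, 0.37 and 0.78 after long and -0.80, -0.59 and -1.13 after short exposure. Both other silicon transporters missed the long limit of 0.4. Lsi2 (Os03g0107300) rose by 0.34 ± 0.06 after long (SE, adjusted p = 0.00802, limma) and fell by 0.70 ± 0.12 after short exposure (adjusted p = 0.00376). Lsi6 (Os06g0228200), a channel related to Lsi1, stood at 0.14 ± 0.12 after long exposure (adjusted p = 0.382) and fell by 0.97 ± 0.08 after short exposure (adjusted p = 0.000361). Counting members, 3 of 4 silicon transporters were higher after long exposure and 4 of 4 were lower after short exposure, with medians of 0.40 and -0.87. The wider aquaporin list, which holds Lsi1, had 11 of 26 tested loci higher and 4 lower after long exposure, and 8 higher and 11 lower after short exposure (medians 0.15 and -0.15). Beside both lists, 27.3% of all tested loci were called higher and 30.4% lower after long exposure. The shares after short exposure were 28.3% higher and 39.7% lower.

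Other transporters among the members were single genes of their families. Os01g0770700, a copper transporter of the Ctr family, had ratios of 1.08, 0.92 and 0.58 after long and -0.56, -0.33 and -0.82 after short exposure. The second copper transporter that could be tested, Os09g0440700, rose by 0.42 ± 0.07 after long exposure (SE, adjusted p = 0.00462, limma) and fell by 0.35 ± 0.07 after short exposure (adjusted p = 0.00806), which missed the limit of -0.5. Os05g0493800, a nodulin-like transporter of the drug/metabolite superfamily, had 0.49, 0.79 and 0.48 after long and -0.88, -0.60 and -0.86 after short exposure. Over its superfamily, 21 of 74 tested loci were higher and 28 lower after long exposure and 19 higher and 32 lower after short exposure (medians -0.01 and -0.09). Among all tested loci 27.3% were called higher and 30.4% lower after long, and 28.3% higher and 39.7% lower after short exposure. Nothing particular to the superfamily is read from its counts. Os01g0856500, an AUX1-like carrier that brings auxin into cells, met the limits with 1 of 4 probes (0.42 and -0.53). Its other 3 probes had the same signs, with long means of 0.35 to 0.36 and short means of -0.52 to -0.41. Lists of ammonium transporters (8 on the array) and of the ethylene synthesis genes ACS and ACO (11) held 0 members.

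Wall-modifying proteins supplied 6 members, all of them lower by less than 2-fold after short exposure. They were 2 of 21 endoglucanases, 1 of 47 expansins and 1 of 60 family GH17 glucanases on the array. The others were 1 of 27 xyloglucan endotransglucosylases and 1 of 32 xyloglucan galactosyltransferases. Of all loci on the array, 89 of 29690 were members, and of the measured loci 0.548%. The wall lists of cellulose synthase-like (39 on the array), glycosyltransferase 8 (29), pectin methylesterase (32) and arabinogalactan protein (20) genes held 0 members. Os02g0123700, an endoglucanase of glycoside hydrolase family 9 (GH9), had ratios of 0.81, 0.24 and 1.07 after long and -0.69, -0.87 and -0.75 after short exposure. OsCel9C (Os05g0212300), another GH9 enzyme, had 0.57, 0.41 and 0.56 after long and -0.63, -0.75 and -0.62 after short exposure with the probe that met the limits. Its brighter probe had a lower long mean of 0.25 and a similar short mean of -0.65. With normexp and loess the short mean of the chosen probe was -0.38. Over the GH9 list, members included, 9 of 16 tested loci were higher and 6 lower after long exposure, and 2 were higher and 12 lower after short exposure (medians 0.21 and -0.32). Shares over all tested loci were 27.3% higher and 30.4% lower after long, and 28.3% higher and 39.7% lower after short exposure.

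The β-expansin Os04g0530100, of a class of proteins that loosen grass cell walls, had ratios of 0.44, 0.45 and 0.61 after long and -0.56, -1.05 and -0.64 after short exposure, and both its probes met the limits. Over the expansin list, 13 of 36 tested loci were higher and 8 lower after long exposure, and 17 of 39 were higher and 11 lower after short exposure (medians 0.07 and 0.10). Os06g0697000, a xyloglucan endotransglucosylase/hydrolase that cuts and rejoins xyloglucan, had 0.53, 0.66 and 0.37 after long and -0.73, -0.66 and -0.56 after short exposure. Its second measured probe had a long mean of 0.61 and a short mean of -0.22, which missed the short limit. With normexp and loess the first probe had a short mean of -0.42. In that family 8 of 20 tested loci were higher and 6 lower after long exposure, and 4 of 21 were higher and 9 lower after short exposure (medians 0.05 and -0.16). For both families the shares over all tested loci were 27.3% higher and 30.4% lower after long exposure. They were 28.3% higher and 39.7% lower after short exposure.

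Os03g0144500, annotated as a xyloglucan galactosyltransferase, which adds side chains to xyloglucan, had ratios of 0.37, 0.35 and 0.50 after long and -0.67, -1.15 and -0.65 after short exposure. Over its family, 2 of 27 tested loci were higher and 15 lower after long exposure, and 0 of 24 were higher and 19 lower after short exposure (medians -0.17 and -0.49). Os03g0221500, of the glucanase family GH17, had 0.35, 0.40 and 0.56 after long and -0.34, -0.78 and -0.43 after short exposure, and 2 of its 4 probes met the limits. Both remaining probes had the same signs, with long means of 0.35 and 0.61 and short means of -0.55 and -0.38. The GH17 list had 16 of 42 tested loci higher and 4 lower after long exposure, and 16 of 45 higher and 14 lower after short exposure (medians 0.08 and -0.04). Next to these 2 families, 27.3% of all tested loci were called higher and 30.4% lower after long exposure. After short exposure the shares were 28.3% higher and 39.7% lower.

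Among receptor-like kinases, proteins that pass signals through phosphorylation, 3 were members. They were 1 of 25 RLCK-IX genes and 1 of 2 LRR-IV genes on the array, and 1 LRR-VI gene, for which no list was used. Receptor-like kinases as a whole were not counted, so no share stands beside the 3. Os01g0935800, a cytoplasmic kinase of subfamily RLCK-IXa, had ratios of 0.39, 0.36 and 0.74 after long and -0.93, -1.48 and -1.57 after short exposure, and was thus 2.51-fold lower after short exposure. Os08g0117700, of the small leucine-rich repeat family LRR-IV, had 0.60, 0.42 and 0.71 after long and -0.39, -1.07 and -0.58 after short exposure. The second gene on the LRR-IV list, Os06g0134700, rose by 0.37 ± 0.09 after long exposure (SE, adjusted p = 0.017, limma) and fell by 0.79 ± 0.12 after short exposure (adjusted p = 0.00273), and missed only the long limit. Os05g0353500, of LRR-VI, had 1.05, 0.81 and 0.35 after long and -0.45, -0.53 and -0.53 after short exposure, the member closest to the short limit. Its short mean was -0.27 with normexp and loess. The LRR-III list held no member, with 11 of 24 tested loci higher and 2 lower after long exposure. After short exposure 1 of 22 was higher and 16 were lower (medians 0.12 and -0.48, long and short). No member came from the DUF26 kinase list either, where 6 of 14 tested loci were higher and 5 lower after long exposure. That list went the other way after short exposure, with 9 of 14 higher and 2 lower (medians 0.02 and 0.78). On the RLCK-IX list 2 of 12 tested loci were higher and 5 lower after long exposure, and 5 of 13 were higher and 7 lower after short exposure (medians -0.17 and -0.19). Shares over all tested loci, for these kinase lists too, were 27.3% higher and 30.4% lower after long exposure. After short exposure they were 28.3% higher and 39.7% lower.

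The regulators among the members included the MYB transcription factor Os01g0975300, whose 4 probes all met the limits. Its brightest probe had ratios of 1.09, 0.98 and 1.27 after long and -0.82, -0.64 and -0.87 after short exposure. Over the 4 probes the long means were 0.80 to 1.12 and the short means -1.11 to -0.78. A pair of these probes was at least 2-fold higher after long and 2-fold lower after short exposure, which no probe of another locus was. OsERF3 (Os03g0182800), an ethylene-response-factor protein, met the limits with 1 of 3 measured probes (0.68 and -0.53), while both others had long means of 0.14 and -0.01 and short means of -0.87 and -0.94. The probes of OsERF3 thus shared only the direction after short exposure.

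The members lowest after short exposure were led by Os03g0171300, annotated as similar to a DNA-binding protein, with 0.38, 0.35 and 0.66 after long and -1.73, -1.88 and -1.23 after short exposure. Its short mean of -1.61 ± 0.34 (SD, n = 3) was a 3.06-fold lower level. Os02g0609200, similar to the stress protein OZI1 described in Arabidopsis, had 0.47, 0.37 and 0.89 after long and -1.14, -1.74 and -1.61 after short exposure. Both were above 0 on all long arrays and below -1 on all short arrays. Os03g0219100, with the CRAL-TRIO lipid-binding domain, averaged 0.53 and -1.34, the RNA-binding protein Os06g0220600 averaged 0.42 and -1.26, and the conserved hypothetical protein Os02g0782900 averaged 0.43 and -1.20, after long and short exposure. The group of 10 also held the kinase Os01g0935800 and 4 loci with no annotation in the sources used here. Of those, Os02g0203600 (0.42 and -1.41) and Os02g0829300 (0.48 and -1.39) carry probes of 1 shared source sequence, and Os06g0218800 averaged 0.92 and -1.10 and Os01g0700900 0.59 and -1.07. Without long replicate 2 the long mean of Os01g0700900 was 0.37.

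The highest mean after long exposure was that of Os05g0162000, which has no annotation here. Its ratios were 3.30, 2.60 and 0.47 after long and -0.49, -1.16 and -1.11 after short exposure. Long replicate 3 was far below the other long arrays, and without it the long mean was 2.95 in place of 2.12. The second probe of Os05g0162000 had the same spread of ratios, with 3.18, 2.73 and 0.65. On the long arrays the log2 signal of the first probe, scaled between arrays, was 9.15, 9.08 and 9.18 in FA roots. In water roots it was 5.86, 6.49 and 8.71, so the spread of the ratio lay in the water channel. Os08g0462900, of the DUF716 family, was even across the long arrays, with 1.16, 1.11 and 1.20, and had -0.43, -0.54 and -1.08 after short exposure. Of the other unannotated loci with high long means, beside Os06g0218800 above, Os03g0826800 averaged 1.08 ± 0.44 after long and -0.51 ± 0.22 after short exposure, Os07g0643000 0.94 ± 0.24 and -0.74 ± 0.48, and Os01g0876300 0.88 ± 0.13 and -0.84 ± 0.21 (SD, n = 3 each). With normexp and loess the short means were -0.44 for Os08g0462900, -0.33 for Os03g0826800 and -0.43 for Os07g0643000, and without short replicate 3 that of Os07g0643000 was -0.47.

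**Figure D3:**
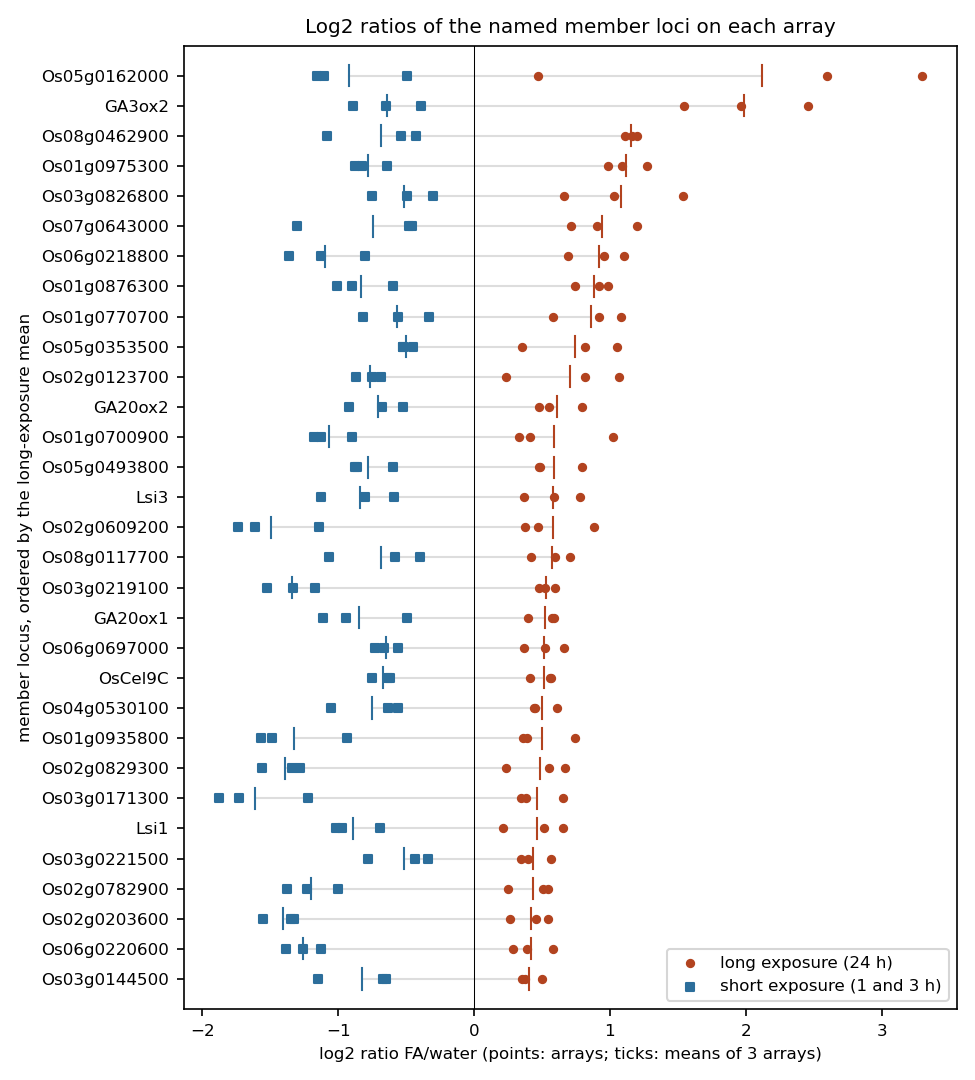
Log2 ratio of FA over water (x axis) of 31 named member loci (y axis, ordered by the mean after long exposure), with a point for each of 3 long and 3 short arrays and a tick at each mean of 3. All long points are right of 0 and all short points left of it, as the limits require, and the long points of Os05g0162000 spread from 0.47 to 3.30.

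The ratios set 2 channels against each other, and both differed between the exposures. After scaling the single channels between arrays, the FA channel of the members was higher on the long than on the short arrays in 85 of 89, with a median change of 1.09 on the log2 scale, and the water channel was lower in 55 and higher in 34, with a median change of -0.29. Over all measured loci the median changes were 0.09 and 0.05, with 58.4% of loci higher in the FA channel and 56.5% higher in the water channel. A rise of the FA channel with a fall of the water channel occurred in 51 members and in 17.2% of all measured loci. The limits chose members whose channels part, so this is again a description. The dye, the slide and the time of harvest were the same for all loci of an array, and their part in these changes was not tested.

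The members came by the same difference in several ways. For Lsi1 the scaled signal was 42850 in FA and 31118 in water roots after long exposure, and 9925 in FA and 18447 in water roots after short exposure, so that both channels were higher on the long arrays. The same held for Lsi3, with 3489 in FA and 2335 in water roots after long, and 678 in FA and 1215 in water roots after short exposure. For GA3ox2 the water signal differed little, with 243 after long and 299 after short exposure, while the FA signal was 966 after long and 191 after short exposure. GA20ox1 had lower signals after long exposure in both channels, with 299.5 in FA and 209 in water roots after long, and 376 in FA and 677 in water roots after short exposure. The coding-sequence probe of GA20ox2 behaved alike, and Os01g0700900 and Os03g0826800 were the other members whose FA channel was lower on the long arrays. In GA20ox1, GA20ox2, Os01g0700900 and Os03g0826800 the water channel was lower by more than the FA channel, with changes of -1.70, -1.58, -2.68 and -2.28 on the log2 scale.

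**Figure D4:**
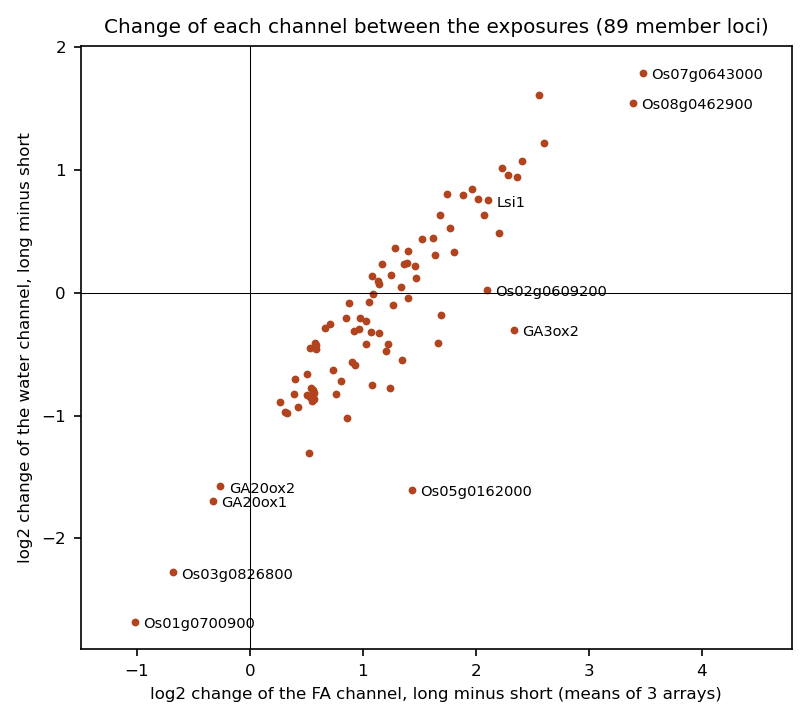
Change of the FA channel (x axis) and of the water channel (y axis) between the exposures, long minus short, on the log2 scale after scaling between arrays (means of 3 arrays), for the 89 member loci. The points spread along a band below the diagonal, 85 of them right of 0, and GA20ox1, GA20ox2, Os03g0826800 and Os01g0700900 lie left of 0 with both channels lower on the long arrays.

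Not all 89 loci are separate measurements. A single expressed sequence tag was the source of probes named for 22 loci, all of them measured, and 9 of these were members, with long means of 0.41 to 0.48 and short means of -0.98 to -0.87. The 22 probes as a whole had long means of 0.35 to 0.48 and short means of -1.01 to -0.80, so that the long limit cut through a group of near-identical values. Counting each of the 2 shared sources once left 80 separate units. The other 78 loci had a source of their own. Of 21 members with more than 1 measured probe, 12 met the limits with all of them. The brightest measured probe met the limits in 83 of 89 loci, and of 15 further measured probes that did not, 12 had the same signs of both means.

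The median signal of the members was 672, against 707 over all measured loci, with the same signal limit of 100 applied to both. All 89 members were well above background in both channels on all 6 arrays. An mRNA sequence was the source of the representative probe in 65.2% of the members and in 75.7% of all measured loci. By their locus names, chromosome 1 held 17 and chromosome 2 held 15 members, and the shares of measured loci ran from 0.225% on chromosome 12 to 0.772% on chromosome 2. With the loci of shared sources left out, chromosome 2 held 11. Among 106 measured probes without a locus name 0 met the limits.

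The limits cut a continuous distribution. Just inside the short limit lay Os05g0353500 (-0.50), Os12g0111400, Os07g0529600, Os04g0490300 and Os03g0826800 (-0.51), and just outside it Os01g0133900 (-0.50), Os09g0375300, Os02g0773600, Os04g0528400 and Os01g0732300 (-0.48). Just inside the long limit lay Os02g0699500 and Os02g0112000 (0.40 each), Os02g0125900, Os03g0122200 and Os12g0410300 (0.41). Just outside it lay Os05g0390800 (0.40), Os02g0208000, Os10g0465700, Os06g0695100 and Os07g0559400 (0.39). Loci on both sides of a limit differed by a few hundredths on the log2 scale, less than the spread between replicates.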

How the data were processed

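Total RNA of FA-treated and water-treated rice roots had been labelled with Cy5 and Cy3 and hybridized to 6 arrays, with replicates and exposures taken from the sample labels. The deposited scanner files hold, per spot, the processed intensity of each channel and a log10 ratio of red over green. The authors' Feature Extraction (version 10.7.1.1 per the file headers) had background-corrected and dye-normalized the intensities. Once marked spots were left out and spots of a probe averaged, as described below, the ratio was exactly 0 for 5446 to 6753 probes per array. The deposited series matrix holds log2 ratios, which for the 41882 one-spot probes compared differed by under 0.0001 from log2 of the ratio of processed signals.

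The log10 ratio was converted to log2, control spots and spots marked non-uniform or outlying were left out, and spots of a probe were averaged. Probes whose FA or water signal reached 100 on 1 or more arrays of the exposure were fitted with lmFit and eBayes of limma 3.58.1 (R 4.3.3) against 0 per exposure, and for long minus short on all 6 arrays, with Benjamini-Hochberg adjustment over all probes tested and an adjusted p under 0.1. Single channels were scaled between arrays by quantiles of mean signal. A member took its brightest probe that met the limits, and a list locus its brightest probe. The members and the gene lists, taken from families in the study's supplementary tables and general knowledge, were chosen with earlier results of these data known. Named are the members on a list, the 10 lowest after short and 10 highest after long exposure and the 5 loci on each side of each limit; others, such as Os01g0856500 and OsERF3, were chosen after their values were seen. Alternatives were normexp (offset 50) with loess on the raw median signals, centring, the series matrix, other filters, probes and limits, each array left out, slide and replicate blocks, and the methods' t-test. Figures were drawn with matplotlib 3.10.9 and pandas 2.3.3 in Python 3.11.15, and tables handled with version 1.17.8 of the R package data.table. Promoter and probe sequences and genome coordinates were not used here.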

Additional observations from a re-analysis of the deposited data

Results flagged for a closer look

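The 89 loci were singled out because every array of long exposure lay above 0 and every array of short exposure below 0. The limits that chose them fix this opposition, so it is a description and the difference was not tested.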

How the results depend on the processing

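The number of loci changed with the limits, with the signal filter and with normexp and loess, which replace background correction and normalization together. It was 57 with normexp and loess, of which 49 were among the 89, 163 without the signal filter and 1 with 2-fold limits in both exposures. With each array centred on its median it was 96, of which 66 were among the 89. Counting each source sequence once, an alternative chosen after seeing the data, gave 80. Leaving out 1 array gave 78 to 106 loci, 73 of the 106 without long replicate 3 being among the 89. With 1 array left out, 88 to 89 members were called higher after long exposure and 5 to 7 at 2-fold, 89 were called lower after short exposure and 12 to 16 at 2-fold (16 without short replicate 1 and 16 without short replicate 3), and 89 and 72 to 85 differed between the exposures. Called higher after long exposure were 37 members by the methods' t-test and 3 at 2-fold, as with normexp and loess (3). These counts are of members only, with no share over all probes, and nothing is read from them. On the gene lists, 21 loci were called 2-fold lower after short exposure and 9 with normexp and loess, 6 against 3 were lower after long exposure, and 9 against 5 higher. The causes were not tested. The short mean of GA20ox2 was 0.012, on the other side of 0, as the median of its probes. The replicate numbers did not pair the arrays (same-number correlations of deviations -0.08, -0.01 and 0.14), and with the replicate block 89 and 79 members differed between the exposures, as without it. Slide as a random block (estimated correlation -0.099) left those counts at 89 and 79 and could not be fitted within an exposure. Every slide held arrays of 1 exposure only, so this block cannot separate slide from exposure. With 3 arrays per exposure, differences near the limits are within the spread between arrays.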
